A study of Mus musculus with 2 samples.

Results

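The LIN28 and let-7 timing genes described here are 9 genes taken by symbol from the 27998 genes measured: Lin28a, Lin28b, Hmga2, Igf2bp1, Igf2bp2, Igf2bp3, Igdcc3, Arid3b and Trim71. They were chosen by name and not by their values, though earlier results of these data were known. Single-cell RNA had been profiled from mouse embryos of strain C57BL/6J to compare control endothelium with endothelium from embryos meant to lack Mekk3, the kinase encoded by Map3k3. The control was 1 library pooling the genotypes Mekk3 fl/fl and Mekk3 fl/+, and the mutant was 1 library of Mekk3 fl/-; Tie2Cre+. The tissue of both was dorsal aorta plus vitelline and umbilical arteries, and cells were sorted on 1 gate, Ter119- CD41lo/- CD31+CD144+ ESAM+. Tie2Cre is driven in endothelial and blood cells, so the floxed allele is meant to be deleted in both. The labels name no Cre in the control, and the number of embryos behind each library is not given in the sources used here. Both titles give embryonic day 9.5, whereas the stage labels give 9.5 for the control and 9.7 for the mutant. Genotype, labelled stage and library therefore cannot be told apart in any difference below. With 1 library per genotype there was no test and no replicate check, and every interval is an exact 95% interval that covers counting error only.

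LIN28A and LIN28B are RNA-binding proteins that hold the precursors of the let-7 microRNAs and block their maturation. Mature let-7 binds the 3′ untranslated regions (UTRs) of its target messages and lowers their level or translation, and Lin28a and Lin28b are themselves targets, so the pair forms a switch. In animals from worms to mice the LIN28 proteins and many let-7 targets are high in early embryonic tissue and decline as it matures, which is why these genes are read as a clock of developmental time.

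The sequences behind this switch are shown because the seed of let-7 defines which members can be its targets. RefSeq (GRCm38.p6) lists 11 mature let-7 family names from the 5′ arm, miR-98 included, and 10 share the seed GAGGUAG at bases 2 to 8, counted from the 5′ end. Over all mouse microRNAs in the same table, 11 of 1674 distinct mature sequences (0.657%) hold these letters there. In the lines below, capitals mark bases 2 to 8.
mmu-let-7a-5p: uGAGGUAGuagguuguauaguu
mmu-let-7e-5p: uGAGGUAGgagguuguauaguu
mmu-let-7g-5p: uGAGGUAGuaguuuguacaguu
mmu-miR-98-5p: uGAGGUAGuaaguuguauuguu
mmu-let-7j: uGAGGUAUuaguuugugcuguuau
The name let-7j is the exception, with GAGGUAU in the seed.

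LIN28 is known to contact a GGAG motif in the loop of let-7 precursors. GGAG was searched from the end of the 5′ arm to the end of the hairpin, a stretch longer than the loop. It was found in 9 of 11 let-7 hairpins, and in 117 of the 689 mouse hairpins with an annotated 5′ arm (16.98%). The hairpins of let-7b and let-7c-2 had no match, which says only that these letters are not in that stretch. A hairpin with the motif (capitals) and one without it are shown, both on the plus strand of GRCm38.p6. Mirlet7g lies at chr9:106178840-106178927 and Mirlet7b at chr15:85707319-85707403.
Mirlet7g: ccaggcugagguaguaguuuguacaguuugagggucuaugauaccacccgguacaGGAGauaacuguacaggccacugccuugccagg
Mirlet7b: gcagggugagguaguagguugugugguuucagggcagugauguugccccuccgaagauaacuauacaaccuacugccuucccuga

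All 9 members hold a match to the let-7 seed in the 3′ UTR of their longest-UTR transcript (GENCODE vM21, GRCm38), searched on the transcript's own strand. The 8mer is CTACCTCA and the 7mer is CTACCTC, which each 8mer contains. An 8mer was found in 8 of 9 members, and Arid3b held only a 7mer. Of all 21027 genes with a 3′ UTR, 3.06% held an 8mer and 9.02% held either. The members were chosen as genes of the LIN28 and let-7 switch. Their excess over this background, and over genes of like UTR length below, is therefore not an independent result. The members held 23 matches in all, 15 of them 8mers. A match is a description of the sequence, not a shown site of binding. The first match of each member is printed with the matching letters in capitals, and both matches of Igdcc3 are shown because its ratio between the libraries was the lowest of the 9.
Lin28a, chr4:134005178-134005207, minus strand: agcctgttgaaCTACCTCAtttttgccgat
Lin28b, chr10:45381011-45381040, minus strand: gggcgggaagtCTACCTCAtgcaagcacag
Hmga2, chr10:120364213-120364242, minus strand: acattcaatttCTACCTCAgcatcagttgg
Igf2bp1, chr11:95961767-95961796, minus strand: tgcgaagtaaaCTACCTCAaggtgtgaagt
Igf2bp2, chr16:22059462-22059491, minus strand: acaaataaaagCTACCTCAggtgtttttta
Igf2bp3, chr6:49086776-49086805, minus strand: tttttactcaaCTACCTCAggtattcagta
Igdcc3 first, chr9:65185711-65185740, plus strand: actctcagcacCTACCTCAgccggaatgaa
Igdcc3 second, chr9:65185791-65185820, plus strand: cgaaagcactcCTACCTCAagccccttaat
Arid3b, chr9:57790356-57790379, minus strand: tcaataaagctCTACCTCttcaca
Trim71, chr9:114512461-114512490, minus strand: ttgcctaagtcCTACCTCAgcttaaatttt
UTR length sets how often such letters occur, so each member was read against genes with a UTR of 80% to 125% of its own length. Igdcc3 has a short UTR of 538 bases with 2 8mers, where 1.27% of 2278 genes of like length held any. Trim71 has 4 8mers in 5512 bases (11.2% of 834 like genes held at least 1), and Igf2bp1 has 3 in 6337 bases (12.6% of 604). Lin28a has 2 in 2775 bases (5.14% of 2625), while Hmga2, Lin28b, Igf2bp2 and Igf2bp3 have 1 each.

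There were 6675 cells in the control library and 3242 in the mutant library, with 60790367 and 21512713 unique molecular identifiers (UMIs). Cells were gated by markers: a cell was endothelial-gated with UMIs of at least 3 of 8 endothelial markers and fewer than 3 of every other class. This gate held 6233 control cells (93.4%, median 7624 UMIs per cell) and 2943 mutant cells (90.8%, median 5978). Levels are UMIs scaled to the total of the gate in that library (CPM). The floor, set at 3 UMIs, was 0.0529 CPM in the control against 0.147 CPM in the mutant. The 8 endothelial markers summed to 3619 CPM in the control and 3027 in the mutant, with none at 0. The 8 blood markers summed to 25.8 and 23.5 CPM, mostly Laptm5 (885 and 314 UMIs), Coro1a (250 and 118) and Fcer1g (248 and 34), while Myb (24 and 0) and Ptprc (1 and 0) were at 0 in the mutant. The 8 erythroid markers, mostly hemoglobin, summed to 306 and 7.65 CPM. Map3k3 stood at 9.32 and 10.6 CPM, a ratio of mutant over control of 1.14 (0.970 to 1.34), and its 3′ tags check neither deletion nor labels. In endothelial-gated cells 20 S-phase genes summed to 1554 CPM in the control against 883 CPM in the mutant, and 20 G2/M genes to 2736 and 2546 CPM. Xist stood at 425 and 994 CPM, and the Y-linked Ddx3y at 1037 and 0 UMIs, so the libraries differ in the sex of their embryos. Of the cell barcodes, 5 occurred in both libraries.

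**Figure D1:**
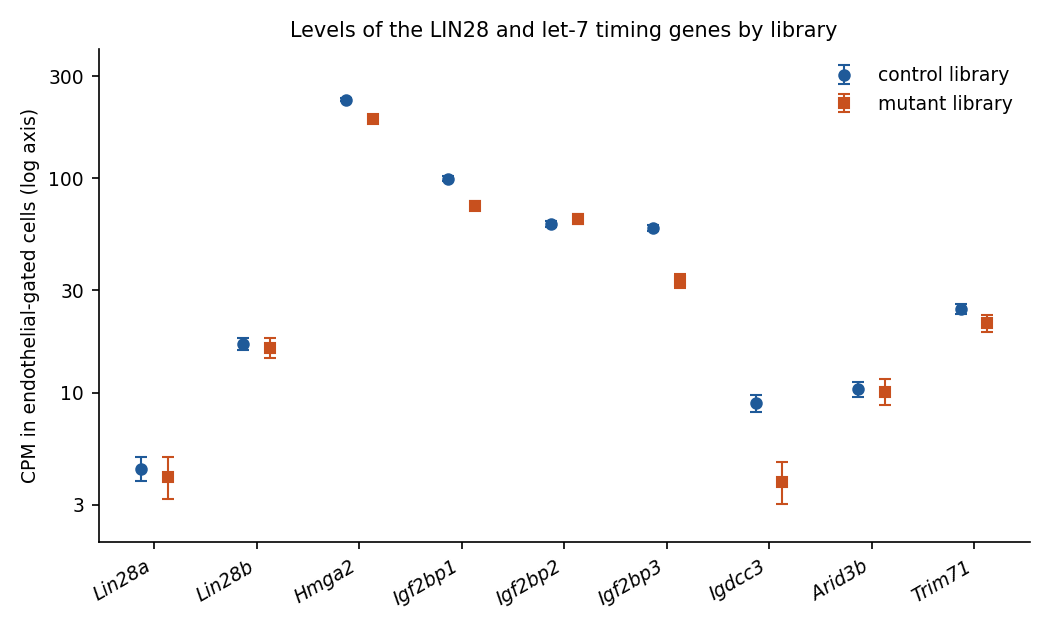
Level of each member in endothelial-gated cells, in CPM on a log axis, for the control library (circles, 6233 cells) and the mutant library (squares, 2943 cells); bars are exact 95% Poisson intervals of counting error. The intervals of the libraries lie apart for Hmga2, Igf2bp1, Igf2bp3, Igdcc3 and Trim71, with the mutant lower, and overlap for Lin28a, Lin28b, Igf2bp2 and Arid3b.

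Neither LIN28 gene separated the libraries beyond counting error, while some of the let-7 targets stood lower in the mutant. Igdcc3 had a ratio of 0.429 and Igf2bp3 of 0.569, Igf2bp1 and Hmga2 stood at 0.749 and 0.810, and the intervals of Igf2bp2 and Arid3b held 1 when levels were scaled to totals. All 9 members reached 20 UMIs over both libraries. Of these, 2 were at least 1.5-fold lower in the mutant and 0 at least 1.5-fold higher, beside 22.8% of 12975 genes lower and 16.4% higher. The share of members past 1.5-fold is thus near the background, and the count is no result about the set. The members' median log2 ratio was -0.22, and that of all 12975 genes was -0.11, with 8 members below 1 and 1 above, beside 57.4% of all genes below 1. The interval lay below 1 for 5 of 9 members and above 1 for 0, beside 39.7% and 27.5% of all genes, so these counts are no result about the set either.

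The choice of scale moves these small differences. Dividing by totals without mitochondrial, ribosomal-protein and hemoglobin genes shifted every log2 ratio up by the same amount, which took the median of all genes from -0.11 to 0.02 and that of the members from -0.22 to -0.10. On that scale 17.8% of genes were lower and 20.7% higher by 1.5-fold, and Igf2bp3 and Igdcc3 were still the 2 members past it. Lin28b and Arid3b moved from below 1 to log2 ratios of 0.06 and 0.08, and Lin28a came to -0.0001. The interval of Trim71 then held 1, at a log2 ratio of -0.10 (-0.26 to 0.06), as it did with median-of-ratios factors, at -0.15 (-0.31 to 0.005). The interval of Igf2bp2 lay above 1 with TMM factors, at 0.13 (0.04 to 0.22), with median-of-ratios factors, at 0.15 (0.06 to 0.24), and with the reduced totals, at 0.20 (0.11 to 0.29). Log2 ratios minus the median of all genes do not depend on the scaling. On this measure Igdcc3 lay at -1.10, Igf2bp3 at -0.70, Igf2bp1 at -0.31, Hmga2 at -0.20 and Trim71 at -0.12. Lin28a was at -0.02, Lin28b at 0.04, Arid3b at 0.06 and Igf2bp2 at 0.19.

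Lin28a (chr4:134003330-134018841, minus strand), the family member first known from pluripotent cells, was scarce. It had 250 UMIs in the control, 4.41 CPM (3.88 to 4.99), and 82 UMIs in the mutant, 4.02 CPM (3.20 to 4.99). The libraries overlapped, at a ratio of 0.912 (0.702 to 1.18), and 48.7% of all genes had a lower ratio. Lin28b (chr10:45376620-45486395, minus strand), its paralog, had 960 control UMIs, 16.9 CPM (15.9 to 18.0), and 329 mutant UMIs, 16.1 CPM (14.4 to 18.0). Its ratio of 0.953 (0.839 to 1.08) also spanned 1. The intervals leave room for a mutant level between 0.839 and 1.08 of the control for Lin28b, and a wider one for Lin28a.

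In both libraries Lin28b was more abundant in cells rich in cell-cycle transcripts. Endothelial-gated cells were split at the median share of UMIs on the S-phase and G2/M genes, taken over both libraries. In the control Lin28b stood at 18.6 CPM in the upper part (3549 cells) and 13.8 CPM in the lower part (2684 cells), a ratio of 1.35 (1.17 to 1.56). In the mutant it stood at 19.6 CPM (1039 cells) and 13.7 CPM (1904 cells), a ratio of 1.42 (1.14 to 1.78). Lin28a was 1.70-fold (1.27 to 2.30) higher in the upper part of the control and 1.19-fold (0.751 to 1.88) in that of the mutant. The parts also differ in depth, with medians of 9069 and 6325 UMIs in the control. All-gene medians of the same log2 ratios were -0.02 in the control and 0.05 in the mutant. Between the libraries and within 1 part, Lin28b ratios were 0.996 (0.817 to 1.21) in the lower and 1.05 (0.881 to 1.25) in the upper part, so neither part separated the libraries.

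Lin28b also differed in the control between cells split by vessel-type markers. Cells with a UMI of the arterial connexins Gja4 or Gja5 (1152 cells) stood at 10.6 CPM, and those with Aplnr, Lyve1 or Prox1, genes of venous and lymphatic endothelium (3198 cells), stood at 19.3 CPM. The ratio was 0.548 (0.425 to 0.698), with 419 cells positive for both left out. The same ratio in the mutant was 0.731 (0.444 to 1.15), at 13.7 CPM in 299 cells against 18.8 CPM in 878. Over all genes the median log2 ratio between these marker sets was 0.16 in the control and 0.08 in the mutant. The sets differ in depth, with control medians of 5855 and 9477 UMIs before cells positive for both were left out. Depth and cycle share were not matched between them, and their part in the Lin28b ratio was not tested.

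Hmga2 (chr10:120361275-120476469, minus strand) encodes an architectural chromatin protein and is the best-known let-7 target in mammals. It had 13217 UMIs in the control, 233 CPM (229 to 237), and 3848 UMIs in the mutant, 189 CPM (183 to 195). The libraries did not overlap, at a ratio of 0.810 (0.781 to 0.840), although 37.4% of all genes had a lower ratio. Hmga2 was lower in the mutant in each of 7 overlapping subsets of the endothelial-gated cells, at ratios from 0.697 in cells with Runx1, Gfi1 or Hlf to 0.882 in cells without any vessel marker. Control subsets ranged from 208 to 274 CPM and mutant subsets from 176 to 207 CPM, so every mutant subset lay below every control subset. The subsets share cells and libraries, so they are not separate checks for any member. The share of all genes with such a separation was not counted, so it is no result about the members.

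Depth differed between the libraries, so shares of cells with a UMI were compared after each cell was thinned to 2500 UMIs. This left out 929 control and 628 mutant cells. Hmga2 was then detected in 42.7% of 5304 control cells (41.3 to 44.0) and 35.4% of 2315 mutant cells (33.4 to 37.4), and without thinning in 70.8% and 59.0%. Hmga2 is not known to be absent from any class here, and in 121 blood-marked control cells the thinned share was 69.4% (60.4 to 77.5).

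The IGF2BP family, RNA-binding proteins that bind and stabilise messages such as those of Igf2 and Myc, was split. Igf2bp1 (chr11:95957163-96005940, minus strand) had 5644 control UMIs, 99.5 CPM (96.9 to 102), and 1520 mutant UMIs, 74.5 CPM (70.8 to 78.4). The libraries did not overlap, and the ratio was 0.749 (0.707 to 0.793). Igf2bp3 (chr6:49085223-49214957, minus strand) had 3327 control UMIs, 58.6 CPM (56.7 to 60.7), and 680 mutant UMIs, 33.3 CPM (30.9 to 35.9). Its ratio was 0.569 (0.523 to 0.618), and 14.1% of genes had a lower one. Igf2bp2 (chr16:22059009-22163299, minus strand) had 3467 control UMIs, 61.1 CPM (59.1 to 63.2), and 1314 mutant UMIs, 64.4 CPM (61.0 to 68.0). Its intervals overlapped, with a ratio of 1.05 (0.989 to 1.12), though the interval of the ratio lay above 1 under each of the 3 other scalings.

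This split within the family held in the subsets. Igf2bp3 ratios ran from 0.517 in cells with low cell-cycle transcripts to 0.679 in those with high, and Igf2bp1 from 0.680 to 0.840. The interval was below 1 in 7 of 7 subsets for both, and no mutant subset reached a control subset. Here too the subsets share cells, and the share of all genes that do the same was not counted. Igf2bp2 ratios ran from 0.896 to 1.14, with 2 of 7 intervals above 1. After thinning, Igf2bp3 was detected in 13.8% of control cells (12.8 to 14.7) and 7.08% of mutant cells (6.07 to 8.21), against 36.7% and 19.1% unthinned. Igf2bp1 was at 21.5% and 16.98%, and Igf2bp2 at 13.4% and 14.7%. In blood-marked control cells the thinned share of Igf2bp3 was 14.0%, close to that of the control endothelium.

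Besides Lin28b, Hmga2, Igf2bp1, Igf2bp3 and Trim71 were more abundant in cells of high cycle share in both libraries. The share of all genes that do so was not counted, so this is no result about the members as a set. All-gene medians of these log2 ratios were -0.02 in the control and 0.05 in the mutant. The ratio of high to low was 1.14 in the control and 1.18 in the mutant for Hmga2, 1.12 and 1.20 for Igf2bp1, and 1.15 and 1.23 for Trim71, with each interval above 1. Igf2bp2 had 1.05 (0.974 to 1.12) and 1.18 (1.06 to 1.32), and the intervals of Igdcc3 held 1 in both libraries. Arid3b was lower in the control, at 0.787 (0.666 to 0.932), and at 1.25 (0.942 to 1.66) in the mutant. Igf2bp3 had the highest of these ratios in the mutant. It stood at 41.9 CPM in mutant cells of high cycle share and 27.4 CPM in those of low cycle share, a ratio of 1.53 (1.31 to 1.78). The same ratio in the control was 1.16 (1.08 to 1.25), from 61.7 and 53.0 CPM. In the cells of low cycle share Igf2bp3 stood at 53.0 CPM in the control against 27.4 CPM in the mutant. There 25.3% of all genes were at least 1.5-fold lower. Cycle share was not matched between the libraries within this part, and the part of the cell cycle in the Igf2bp3 ratio was not tested.

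Igdcc3 (chr9:65141189-65185872, plus strand), a cell-surface protein of the immunoglobulin superfamily, had the lowest ratio of the 9. It had 506 UMIs in the control, 8.92 CPM (8.16 to 9.73), and 78 UMIs in the mutant, 3.82 CPM (3.02 to 4.77). The ratio was 0.429 (0.333 to 0.545), and 6.07% of genes had a lower one. Past 2-fold it was the only member, beside 9.92% of all genes lower and 8.51% higher. Ratios in the subsets ran from 0.325 (0.128 to 0.691, with 7 mutant UMIs) in Gja4- or Gja5-positive cells to 0.527 (0.126 to 1.68, with 4 mutant UMIs) in Runx1-, Gfi1- or Hlf-positive cells, and 6 of 7 intervals lay below 1.

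Other cell types held far more Igdcc3 than endothelium did, so the traces of those types in the gate were measured. In the control it stood at 55.5 CPM (39.8 to 75.3) in 64 cells with at least 3 mesenchymal markers and at 80.9 CPM (46.2 to 131) in 27 cells with at least 3 neural markers. These were 6.22-fold (4.41 to 8.56) and 9.07-fold (5.15 to 14.9) the level of endothelial-gated cells. The 8 mesenchymal markers summed to 8.76 CPM in the endothelial-gated cells of the control and 9.02 CPM in those of the mutant, with 4 markers lower and 4 higher in the mutant. The 8 neural markers summed to 3.74 and 2.40 CPM, with 6 lower, 2 higher, and Dcx, Sox1 and Neurod1 at 0 UMIs in the mutant. The part of these traces in the Igdcc3 ratio was not tested. In 123 blood-marked control cells Igdcc3 had 2 UMIs, 0.857 CPM (0.104 to 3.09), which is 0.0961 (0.0116 to 0.349) of the endothelial level. Thinned shares were 2.34% of control and 1.17% of mutant endothelial-gated cells, and 0 of 121 blood-marked cells with an interval up to 3.003%.

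Arid3b (chr9:57790353-57836793, minus strand), a DNA-binding protein of the AT-rich interaction family, did not separate the libraries. It had 590 UMIs in the control, 10.4 CPM (9.58 to 11.3), and 205 in the mutant, 10.1 CPM (8.72 to 11.5), a ratio of 0.967 (0.820 to 1.13). Within the control it was the member that differed most between the vessel-type marker sets. Gja4- or Gja5-positive cells stood at 20.0 CPM and Aplnr-, Lyve1- or Prox1-positive cells at 8.65 CPM, a ratio of 2.31 (1.88 to 2.84). In the mutant the levels were 16.2 and 10.0 CPM, a ratio of 1.62 (0.994 to 2.55). Depth and cycle share were not matched between these sets.

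Trim71 (chr9:114507133-114564369, minus strand) encodes LIN-41, an RNA-binding ubiquitin ligase and classic let-7 target of worms. It had 1395 UMIs in the control, 24.6 CPM (23.3 to 25.9), and 429 in the mutant, 21.0 CPM (19.1 to 23.1). The ratio of 0.855 (0.766 to 0.954) excluded 1 over all endothelial-gated cells when scaled to totals, but not under 2 of the 3 other scalings. All 7 subset ratios lay below 1, from 0.796 to 0.959, and 0 of 7 subset intervals excluded it. It lay near the middle of all genes, 42.5% of which had a lower ratio.

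**Figure D2:**
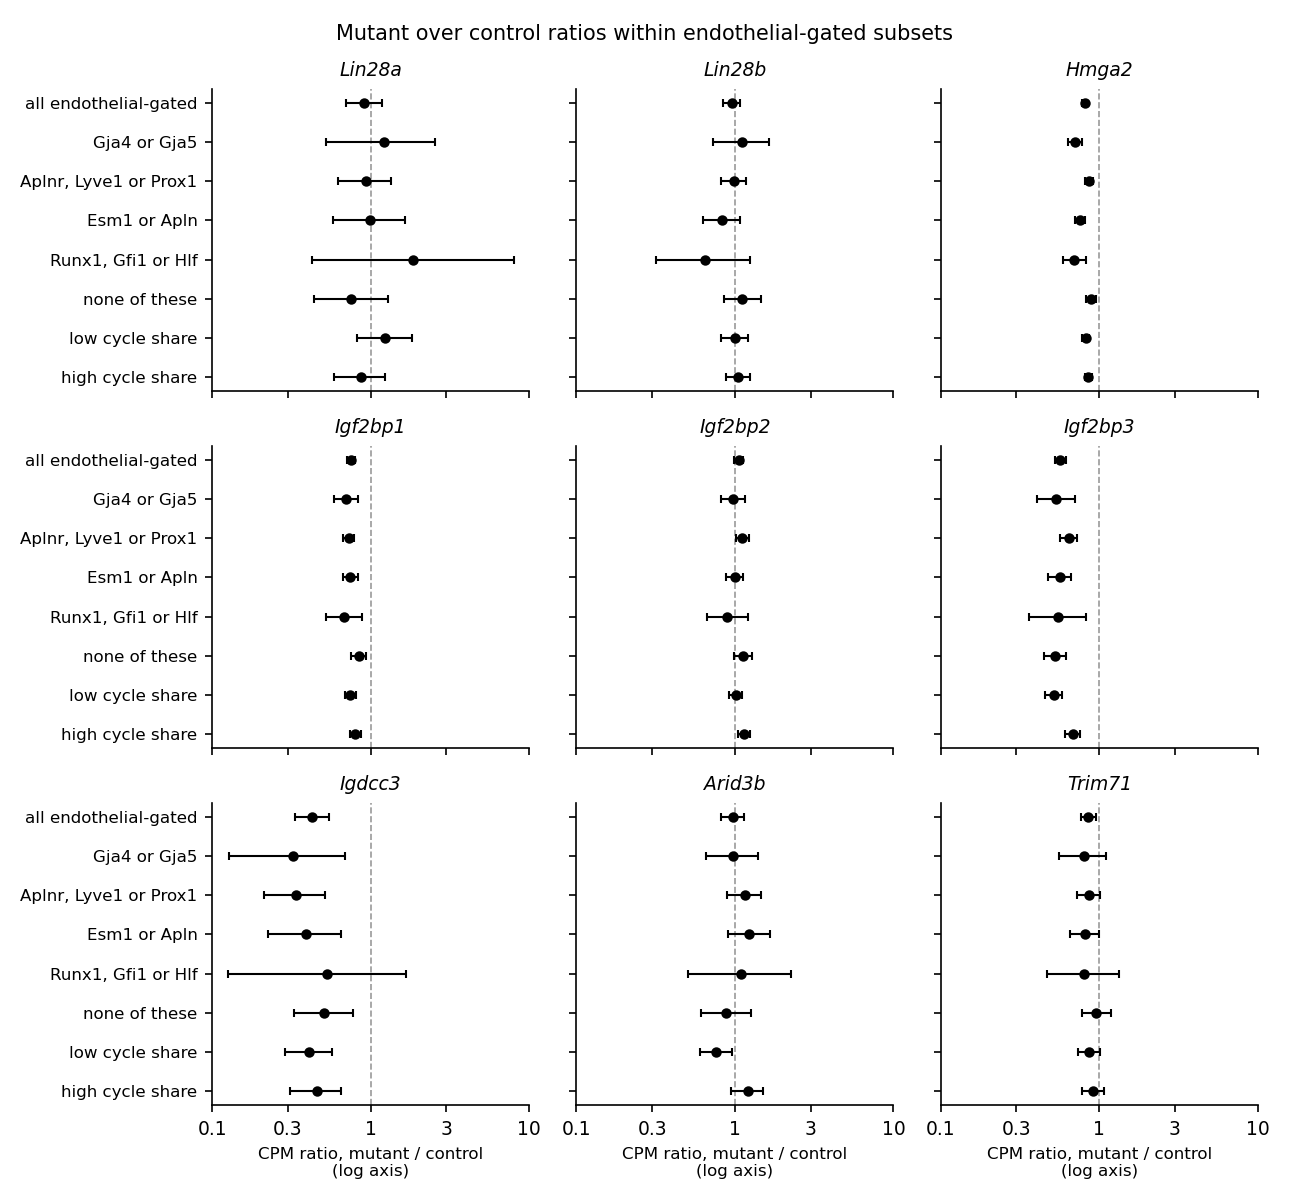
Ratio of mutant over control CPM for each member in all endothelial-gated cells and in 7 overlapping subsets, on a log axis; bars are exact 95% intervals of counting error and the dashed line marks a ratio of 1. Hmga2, Igf2bp1, Igf2bp3, Igdcc3 and Trim71 lie left of the line in each subset, whereas the LIN28 genes, Igf2bp2 and Arid3b fall on both sides. The Trim71 intervals cross the line in each subset, and that of Igdcc3 crosses it in cells with Runx1, Gfi1 or Hlf.

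The subsets show how much of the background moves too. In cells with Gja4 or Gja5 (1571 control and 355 mutant cells) 2 of 9 members were at least 1.5-fold lower, beside 30.2% of genes. In cells with Aplnr, Lyve1 or Prox1 (3617 and 934 cells) 2 of 9 were, beside 22% of genes, and in cells with the tip-cell genes Esm1 or Apln (1153 and 827 cells) 2 of 9, beside 23.3%. Cells with Runx1, Gfi1 or Hlf, which are genes of endothelium turning into blood (154 and 101 cells), had 2 of 7 members with enough UMIs, beside 28.7%. There the 2 were Igf2bp3 and Lin28b, the latter at a ratio of 0.648 (0.316 to 1.25) from 37 and 13 UMIs. Igdcc3, with 14 and 4 UMIs, was not counted. Cells with none of these markers had 2 of 9 beside 20.6%, cells of low cycle share 2 of 9 beside 25.3%, and cells of high cycle share 1 of 9 beside 20.7%. In each of these subsets, in the order given, 0 members were 1.5-fold higher, beside 15.8%, 16.5%, 18.5%, 15.5%, 16.1%, 14.5% and 16.6% of genes. Over all cells of both libraries without a gate, 2 of 9 members were lower and 0 higher, beside 23.7% and 16.1% of genes. In the 216 control and 247 mutant cells that reached no gate, 1 of 6 members was lower and 0 higher, beside 21.5% and 20.6%.

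**Figure D3:**
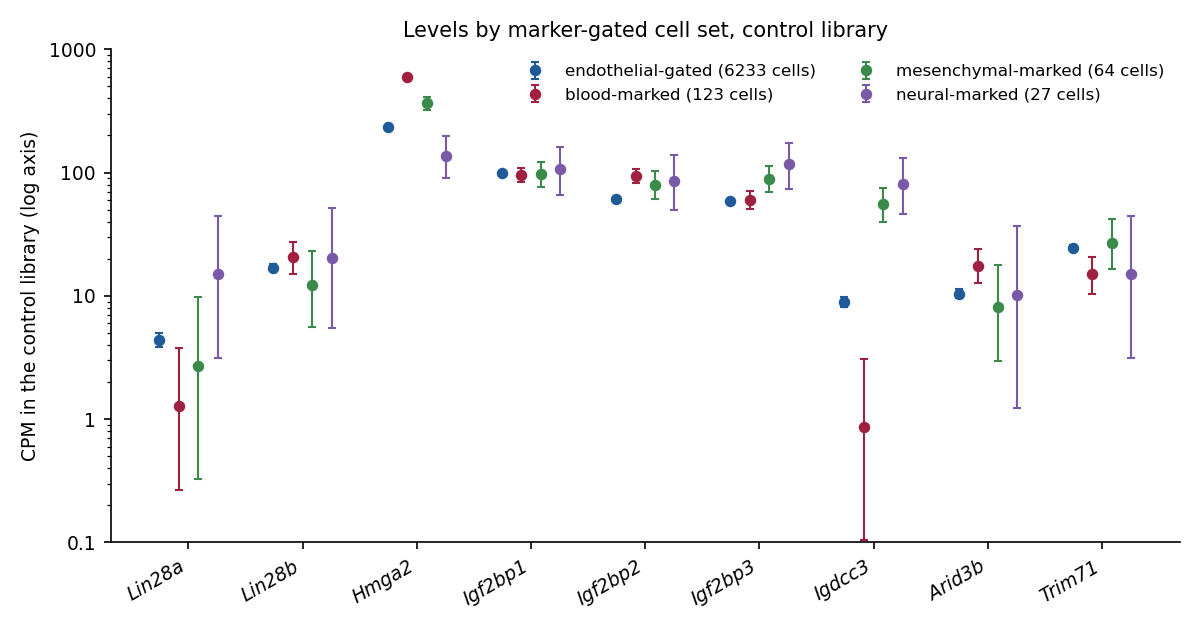
Level of each member in the control library, in CPM on a log axis, in endothelial-gated cells and in cells carrying at least 3 blood, mesenchymal or neural markers; bars are exact 95% Poisson intervals of counting error. Hmga2 is highest in the blood-marked cells, Igdcc3 in the neural- and mesenchymal-marked cells, and Igf2bp1 is level across all 4 sets. Of the 123 blood-marked cells, 106 also carry at least 3 endothelial markers.

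Members differed in where they were abundant in the control library. Hmga2 stood at 590 CPM (560 to 622) in blood-marked cells, 365 CPM (323 to 412) in mesenchymal-marked cells, 233 CPM in endothelial-gated cells and 137 CPM (90.0 to 199) in neural-marked cells, and no neighbours in this order overlapped. Igf2bp3 ran from 116 CPM (73.7 to 175) in neural-marked and 89.3 CPM (69.1 to 114) in mesenchymal-marked cells to 60.0 CPM (50.4 to 70.8) in blood-marked and 58.6 CPM in endothelial-gated cells. Each of these neighbours overlapped, while the neural- and mesenchymal-marked cells lay above the endothelial-gated cells. Igf2bp1 was within error across the 4 sets, at 99.5, 95.5, 97.5 and 106 CPM in endothelial-gated, blood-, mesenchymal- and neural-marked cells. Igf2bp2 was higher in blood-marked cells than in endothelium, at 93.8 against 61.1 CPM (ratio 1.54, 1.33 to 1.76), as was Arid3b, at 17.6 against 10.4 CPM (1.69, 1.20 to 2.32). Trim71 was lower in blood-marked cells, at 15.0 against 24.6 CPM (0.610, 0.423 to 0.852). Lin28b did not separate the 4 sets, and Lin28a had only 3, 2 and 3 UMIs in the blood-, mesenchymal- and neural-marked cells. Of the 123 blood-marked cells 106 also reached 3 endothelial markers. The 123 cells had a median of 18206 UMIs, far above the 7624 of endothelial-gated cells, so doublets and cells between the types cannot be told apart there. In the 106 cells Hmga2 stood at 649 CPM, Igf2bp2 at 102 CPM and Arid3b at 19.4 CPM. The 17 control cells of the blood gate, without 3 endothelial markers, did not show these higher levels. There Hmga2 stood at 230 CPM (181 to 288), Igf2bp2 at 46.0 CPM (25.7 to 75.9) and Arid3b at 6.13 CPM (0.743 to 22.2).

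A further set was too small for a ratio between libraries. Cells with at least 3 endothelial and 3 smooth muscle markers held Hmga2 at 674 CPM (582 to 776) in 20 control cells and 224 CPM (163 to 301) in 22 mutant cells. The summed smooth muscle markers in endothelial-gated cells stood at 27.0 CPM in the control against 90.1 CPM in the mutant, chiefly Tagln (13.6 and 62.9 CPM) and Acta2 (11.7 and 25.3 CPM). Their part in the Hmga2 ratio was not tested.

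Of the messages of 22 proteins that make, modify and use let-7, 16 lay below the median of all genes and 6 above, a split that was not tested. Each of these 22 machinery genes had at least 20 UMIs. Of them, 5 were at least 1.5-fold lower (22.7%), 2 higher (9.09%) and 15 neither, beside 22.8% of all genes lower and 16.4% higher. The share lower is near the background, and the count is no result about the list. The median log2 ratio was -0.34 against -0.11 for all genes. Dgcr8, the partner of Drosha in cutting the primary transcript, stood at 11.8 CPM in the control against 4.76 CPM in the mutant (ratio 0.403, 0.322 to 0.499). Dicer1, which cuts the precursor, stood at 49.3 and 27.2 CPM (0.552, 0.503 to 0.605). Syncrip, an RNA-binding protein, stood at 150 and 75.3 CPM (0.5002, 0.473 to 0.528). On the other side stood Tnrc6b, a silencing partner of the Argonautes, at 29.2 and 57.4 CPM (1.97, 1.82 to 2.12), and Ago4 at 1.46 and 3.28 CPM (2.25, 1.603 to 3.14). Zcchc11, the uridylating enzyme that LIN28A recruits to let-7 precursors, stood at 91.7 and 122 CPM (1.33, 1.27 to 1.39), and Drosha at 15.1 and 14.6 CPM (0.967, 0.845 to 1.11).

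Further genes listed as let-7 targets went both ways, with 18 below the median of all genes and 14 above. Of 32 with at least 20 UMIs, 11 were at least 1.5-fold lower (34.4%), 7 higher (21.9%) and 14 neither, beside 22.8% and 16.4% of all genes. The median log2 ratio was -0.26 against -0.11 for all genes. Among the lower ones the G1 cyclin Ccnd1 stood at 176 CPM in the control against 56.4 CPM in the mutant (0.320, 0.301 to 0.340). The replication helicase Dna2 stood at 25.3 and 10.0 CPM (0.395, 0.339 to 0.458). Irs2, an adaptor of the insulin receptor, had 9 and 30 UMIs (ratio 9.27, 4.29 to 22.2), and the transcription factor Onecut2 had 23 and 40 UMIs (4.84, 2.83 to 8.46). The death receptor Fas stood at 3.05 and 9.90 CPM (3.25, 2.64 to 4.003). In the same mutant cells the 20 S-phase genes summed to 0.568 of the control level, and the part of the cell cycle in these counts was not tested. Col3a1, 1 of the 11, is also among the mesenchymal markers.

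Mature let-7 was not measured, because polyadenylated RNA was tagged at its 3′ end. Transcripts that span let-7 hairpins were in the matrix for 6 of 11 hairpins, from 4 host genes. The lincRNA 6720427I07Rik, which spans let-7a-1, let-7f-1 and let-7d, stood at 2.68 CPM in the control against 3.63 CPM in the mutant (1.35, 1.01 to 1.80), from 152 and 74 UMIs. Spaca6, which spans let-7e, stood at 3.10 and 4.51 CPM (1.45, 1.12 to 1.88). Wdr82, which spans let-7g, stood at 21.2 and 11.5 CPM (0.544, 0.471 to 0.626), and Huwe1, which spans let-7f-2, at 85.1 and 59.0 CPM (0.694, 0.651 to 0.739). The hosts thus stood on both sides of 1, and host RNA does not give the level of the mature microRNA. 6720427I07Rik and Spaca6 were matched by hairpin position after other values had been seen.

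Genes were then grouped by their 3′ UTR match alone, whatever their annotation as targets. Only the 7mer and the 8mer given above were searched, so genes without a match can hold shorter seed matches. The 458 genes with an 8mer had a median log2 ratio of -0.11, the 827 with a 7mer but no 8mer -0.09, and the 10910 without a match -0.12. Of the 8mer genes 22.1% were at least 1.5-fold lower and 14.4% higher, against 22.8% and 15.8% of the genes without a match. The 23 genes with at least 2 8mers had a median of -0.13. UTR lengths differed, with medians of 2465 bases in the 8mer genes and 1073 in those without. Within UTRs of 1000 to 3000 bases the medians were -0.13 for 201 genes with an 8mer and -0.14 for 4243 without. The distributions lay over each other, and the 5 members with an interval below 1 spread from the lower tail to near the middle of the 8mer genes.

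**Figure D4:**
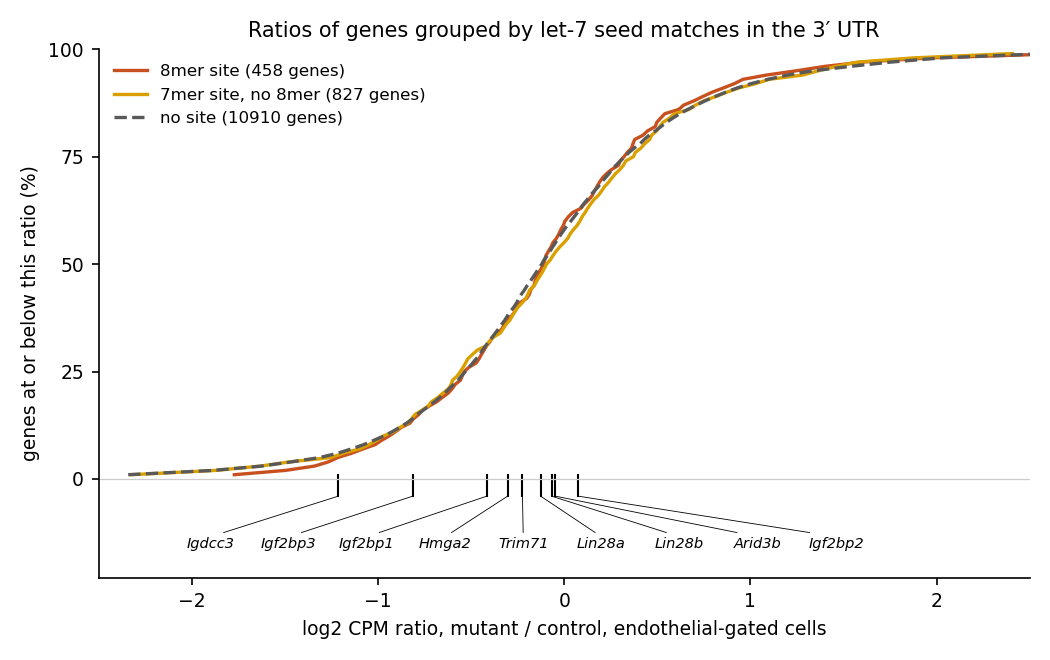
Cumulative share of genes (percent, vertical axis) at or below a given log2 ratio of mutant over control CPM (horizontal axis) in endothelial-gated cells. Genes have an 8mer match to the let-7 seed in the 3′ UTR, a 7mer match without an 8mer, or neither. Ticks below 0 place the 9 members. The 3 curves run together, with medians of -0.11, -0.09 and -0.12, and Igdcc3 and Igf2bp3 sit farthest left.

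For each member the 3 genes with the most similar pattern were taken over 13 sets of cells, 7 from the control and 6 from the mutant. The measure was Pearson's correlation of log2(CPM + 1), as a description without a test, since sets share cells, libraries and depth. Lin28b was most like Cdca5 (0.87), Cenpk (0.85) and Msh6 (0.85), and Lin28a like Id2 (0.89), Rgmb (0.89) and Rpl10-ps3 (0.88). Hmga2 was most like Zfp518a (0.96), Rrp1 (0.96) and the blood marker Fcer1g (0.95), which the gates use. Igf2bp1 was most like Usp16, Eif5b and Dcun1d5 (all 0.99), Igf2bp3 like Minos1, Hars and Ybx1 (all 0.99), and Igf2bp2 like Tmem246 (0.96), Rnf149 (0.96) and Numa1 (0.94). Igdcc3 was most like Tshz1 (0.96), Vps33a (0.92) and Alad (0.92), Arid3b like Armc10 (0.93), Ocln (0.91) and Kmt2c (0.90), and Trim71 like Ndufb5 (0.98), Rap2c (0.96) and Nsmce2 (0.95). Among the members themselves the closest pair was Igf2bp1 and Igf2bp3, at 0.92, and Lin28a and Igf2bp2 ran opposite, at -0.87. Lin28a had few UMIs in several sets: 4 in control cells that reached several gates, and 5 control and 3 mutant UMIs in cells that reached none. Its correlations, with like genes and with members, may therefore reflect counting error.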

How the data were processed

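Reads had been counted with Cell Ranger on mm10, per the submitters' processing notes. Their version, annotation, cell filter and strand setting were not given in the sources used here. Per the file headers, the matrix is one of raw UMI counts (27998 genes by 9917 cells), with at least 501 UMIs per cell. The deposited size factor, a ratio of cell total to a constant, was not used, and the deposited mitochondrial fraction served only 1 alternative. Cells took their library from the deposited genotype word. No doublets or free RNA were removed.

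UMIs were summed per marker gate and library (8 markers each for endothelial, blood, mesenchymal and neural cells, 6 for smooth muscle). Intervals at 95% are exact: Poisson for CPM, conditional binomial for ratios, Clopper-Pearson for shares (Python 3.11.15, pandas 2.3.3, numpy 2.4.6, scipy 1.17.1). For log2 ratios 0.5 UMI was added to both sums. Called means past 1.5-fold, among genes with at least 20 UMIs over both libraries; ratios between libraries needed 50 cells in each. Depth is in the report; the floor was 3 UMIs. Only the CPM and ratio intervals were tested on simulated data, with Poisson counts that hold no spread between cells or embryos. TMM (edgeR 4.0.16) and median-of-ratios (DESeq2 1.42.0) gave scalings only.

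The members and gene lists were chosen with earlier results of these data known. Named were the 9 members, up to 3 genes past 1.5-fold per list and direction, ranked on the interval bound nearest to 1, and 3 like genes per member from genes averaging at least 5 CPM; Zcchc11, Drosha and Huwe1 were added after their values were seen. A gene that this rule takes is not reported here. Annotated genes of opposite strand overlap Lin28a, Hmga2, Igf2bp1, Igf2bp3, Arid3b and Trim71 (for Lin28a the partner is not in the matrix), and without the strand setting their reads cannot be told apart from these.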

Additional observations from a re-analysis of the deposited data

Results flagged for a closer look

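Arid3b went opposite ways in the cell-cycle parts of the endothelial-gated cells. Its ratio of mutant over control was 0.756 (0.598 to 0.951) in cells of low cycle share and 1.20 (0.948 to 1.51) in cells of high cycle share. The difference between the parts was not tested. Trim71 stood at a ratio of 0.855 in endothelial-gated cells and 1.22 (0.428 to 3.46) in cells that reached no marker gate, where each library had 9 UMIs. That difference was not tested either.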

How the results depend on the processing

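The count of 2 members at least 1.5-fold lower and 0 higher was the same under 14 other choices of scaling, gate, cells and depth, 3 of them (mixed cells with endothelial markers added, cells without a globin UMI, cells with a mitochondrial share up to 10%) chosen after seeing the data. At 2-fold the count was 1, since the bound is stricter. The members' median log2 ratio ranged from -0.36 in cells thinned to 2500 UMIs to -0.10 with totals without mitochondrial, ribosomal-protein and hemoglobin genes, and their mean was -0.35. Of 135 values of single members under 15 alternatives, 121 moved by less than their interval and 14 by more; Lin28a went from -0.13 to 0.30 in cells of low cycle share, and the cause was not tested. Hmga2 was the least stable member, with 8 of 15 values that moved by less than its interval. It ranged from -0.40, with control cells that had a Xist UMI and no Y-linked UMI, to -0.18 with the reduced totals. Igf2bp3 ranged from -0.99 to -0.69 and Igdcc3 from -1.28 to -1.02. With all genes that have a UMI as background, 29.8% were lower and 21.4% higher. No paired analysis was possible because each genotype has 1 library. No replicate could be left out for the same reason, and depth limits Lin28a and Igdcc3 most, with 82 and 78 mutant UMIs.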

Other observations

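Embryonic globins give another reading that goes with developmental time, and they are given as values only. Over all cells Hbb-bh1 made up 7.24% (7.07 to 7.41) of the Hbb-bh1 and Hbb-y UMIs in the control and 4.25% (3.95 to 4.57) in the mutant. Hba-x made up 80.5% (80.2 to 80.8) of the Hba-x and Hba-a1 UMIs in the control and 85.1% (84.4 to 85.7) in the mutant. Nearly all of these UMIs came from 37 erythroid-marked control cells and 9 such mutant cells, so the intervals do not cover the spread between cells or embryos. In primitive red cells Hbb-bh1 gives way to Hbb-y and Hba-x to the adult alpha globins as development goes on, so the pairs stood on opposite sides, with the beta-like share lower and the alpha-like share higher in the mutant.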
